A study of Mus musculus with 11 samples.

Results

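The regions of open chromatin around 7 genes of vitamin D, parathyroid hormone (PTH) and glucocorticoid signalling were described: Vdr, Rxra, Cyp24a1, Cyp27b1, Pth1r, Nr4a2 and Nr3c1. A region belonged to a gene when it overlapped the stretch from 20 kb upstream of the gene to 50 kb past its end, and 92 of the 94963 regions in the list did so, each for 1 gene only. ATAC-seq, an assay of open chromatin by cutting with the transposase Tn5, had been run on 11 cultures of MPC2 cells, a conditionally immortalised mouse mesenchymal line derived from 1 clone. Undifferentiated cells (MSCs) received vehicle (DMSO, n = 3) or the HIF prolyl hydroxylase inhibitor FG-4592 at 50 uM (n = 3), and cells grown for 3 weeks under osteogenic conditions (osteocytes) received vehicle (n = 2) or 50 uM FG-4592 (n = 3), in each case for 48 hours. All 4 groups thus share the immortalised background of a single clone. The design asked how mimicked hypoxia alters chromatin in progenitors and in osteocytes. The list analysed here pooled the cultures and gave each region 1 value, taken to be log2 CPM (cuts relative to library size) averaged over the samples, so that no difference between groups could be measured, no value carries a replicate error, and the depth of each culture was unknown.

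Calcitriol, the active form of vitamin D, binds the receptor encoded by Vdr, which pairs with the retinoid X receptor encoded by Rxra on DNA; Cyp27b1 makes calcitriol and Cyp24a1, a classical target of the receptor, inactivates it. Pth1r encodes the receptor through which PTH and the PTH-related peptide raise cAMP in cells of the osteoblast lineage, and Nr4a2 encodes an orphan nuclear receptor whose transcription is rapidly induced by cAMP. Nr3c1 encodes the glucocorticoid receptor, which is expressed in most cell types and binds inverted repeats in the chromatin of its target genes.

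Sequences bound by factors of these pathways were searched as letters in all regions on both strands. The vitamin D response element (DR3) was a pair of hexamers in the same direction with 3 bases between them, each hexamer being AGGTCA or its variant GGGTCA or either of these with TTCA as its last letters, and at most 1 mismatch over the 12 hexamer positions was allowed. The DR3 is the preferred site of the Vdr and Rxra proteins, and 4 of the 92 regions held a match, shown here with its flanks and with the match in capitals. The matches lay 43801 bp inside Rxra, 37154 bp from the 5′ end of Cyp24a1 and thus past the end of that gene, and 27871 and 4148 bp from the 5′ end of Pth1r, and each had 1 mismatch. Coordinates are those of mm10, and sequences run 5′ to 3′ on the strand named.
Rxra DR3, chr2:27720227-27720255, plus strand: agatggtAGGTCACCAAGCTCAgtggacc
Cyp24a1 DR3, chr2:170459977-170460005, plus strand: ctgagagAGGTCAGGGAGGCCAgggaggc
Pth1r DR3, chr9:110719260-110719288, plus strand: gcttctgAGTACACACAGGTCAagaaggc
Pth1r DR3, chr9:110742983-110743011, minus strand: agcaacaAGGTCACGGGGGTCCagactga

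The glucocorticoid response element (GRE) was searched as GNACA and TGTNC with 3 bases between them, and its 2 matches were both at Vdr, 70100 bp and 22487 bp from the 5′ end of the gene. The cAMP response element (CRE) was the palindrome TGACGTCA, bound by Creb1 and its relatives, and had a match at each of Vdr, Rxra and Nr4a2. The monomer element of the Nr4a receptors (NBRE) was AAAGGTCA, which contains the hexamer AGGTCA of the DR3, and had 2 matches, both past the end of Vdr. The matches are in capitals.
Vdr GRE, chr15:97840516-97840544, plus strand: tggagcaaGCACAAGATGTGCctaagatg
Vdr GRE, chr15:97888129-97888157, plus strand: caggtagaGAACACGGTGTGCagaaggga
Vdr CRE, chr15:97849609-97849638, plus strand: cccacgcgccaTGACGTCAggaggtgggga
Rxra CRE, chr2:27774595-27774624, plus strand: gaccacgccgcTGACGTCAgtgggaaacta
Nr4a2 CRE, chr2:57115067-57115096, plus strand: tatttccgaccTGACGTCAcgactggggct
Vdr NBRE, chr15:97824296-97824325, plus strand: ggagctaaaagAAAGGTCAccgacggcaga
Vdr NBRE, chr15:97840152-97840181, minus strand: tcctgccccccAAAGGTCAacctggttccc

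The Nr4a2 CRE lay 43 bp before an inner transcript start of that gene, inside a region of 908 bp, and was the nearest of the 11 matches to a start of its own gene. The Vdr CRE lay 61007 bp and the Rxra CRE 98169 bp from the 5′ end of the gene, past the gene end in both. A match describes the letters only, not a bound site.

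Promoters with and without a region differed in their CpG pairs, and 4 of them are shown as the 250 bases before a transcript start in RefSeq (GRCm38.p6), with each CpG in capitals. The Nr4a2 promoter held 44 CpG pairs and an inner Pth1r promoter 16, and both lay wholly inside a region. The promoter at the 5′ end of Pth1r held 3 pairs and that of Cyp27b1 held 1, and neither overlapped a region.
Nr4a2, chr2:57124004-57124253, minus strand: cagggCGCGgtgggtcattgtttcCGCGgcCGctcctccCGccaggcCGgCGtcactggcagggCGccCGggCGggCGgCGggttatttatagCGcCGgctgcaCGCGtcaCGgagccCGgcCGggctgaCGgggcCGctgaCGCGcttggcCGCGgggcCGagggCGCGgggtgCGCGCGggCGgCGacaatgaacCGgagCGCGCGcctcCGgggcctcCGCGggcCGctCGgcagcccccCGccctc
Pth1r, chr9:110743687-110743936, minus strand: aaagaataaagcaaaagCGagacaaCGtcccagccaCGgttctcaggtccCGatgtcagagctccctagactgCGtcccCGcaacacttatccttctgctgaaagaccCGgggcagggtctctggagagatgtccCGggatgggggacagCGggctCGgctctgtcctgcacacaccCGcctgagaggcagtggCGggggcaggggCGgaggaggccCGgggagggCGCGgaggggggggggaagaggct
Pth1r, chr9:110747146-110747395, minus strand: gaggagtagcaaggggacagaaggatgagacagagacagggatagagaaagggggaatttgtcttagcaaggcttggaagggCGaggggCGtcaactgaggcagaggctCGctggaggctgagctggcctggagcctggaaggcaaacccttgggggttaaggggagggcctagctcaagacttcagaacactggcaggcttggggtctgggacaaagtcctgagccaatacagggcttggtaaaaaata
Cyp27b1, chr10:127047996-127048245, plus strand: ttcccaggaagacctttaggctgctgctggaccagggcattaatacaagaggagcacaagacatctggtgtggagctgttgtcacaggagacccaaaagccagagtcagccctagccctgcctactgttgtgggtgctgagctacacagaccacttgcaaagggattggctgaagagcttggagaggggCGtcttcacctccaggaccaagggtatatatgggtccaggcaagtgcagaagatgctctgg

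The distal regions with the highest level per kb at Vdr and Rxra are shown by their central 300 bases, read along the gene. The capitals mark a RUNX site (TGTGGT, the core bound by the osteoblast factor Runx2 and its relatives) in the Vdr region and an AP-1 site (TGAGTCA, bound by Fos and Jun proteins) in the Rxra region. Neither stretch overlapped an annotated UTR.
Vdr, chr15:97914280-97914579, minus strand: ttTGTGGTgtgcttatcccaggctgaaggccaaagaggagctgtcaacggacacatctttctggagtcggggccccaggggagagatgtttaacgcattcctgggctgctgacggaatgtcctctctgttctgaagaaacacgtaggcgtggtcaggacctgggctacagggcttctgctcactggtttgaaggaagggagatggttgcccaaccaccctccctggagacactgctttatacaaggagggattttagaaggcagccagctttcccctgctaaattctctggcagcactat
Rxra, chr2:27785919-27786218, plus strand: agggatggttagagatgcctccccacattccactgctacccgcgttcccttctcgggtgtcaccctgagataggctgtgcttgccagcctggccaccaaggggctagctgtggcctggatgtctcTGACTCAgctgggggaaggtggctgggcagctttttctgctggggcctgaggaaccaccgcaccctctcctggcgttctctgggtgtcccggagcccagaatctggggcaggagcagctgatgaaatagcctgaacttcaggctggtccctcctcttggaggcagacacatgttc

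The labelled cell types were set against marker genes. Of the 21938 protein-coding genes, 64.1% had a region within 1 kb of a transcript start. Such a region was present for 9 of 9 genes of the mesenchymal and osteoblast lineage, among them Runx2, Sp7 and Col1a1. Of 6 osteocyte genes, Dmp1 and Fgf23 had such a region (33.3%, below the share of all coding genes), and Mepe, Pdpn, Phex and Sost had none in the list analysed here. Among markers of other cell types, Gfap had one, and Alb, Cd3e, Cdh5, Epcam, Hnf4a, Myod1, Neurod1 and Ptprc had none in that list. Because the list pools both stages, it does not show which culture the marker regions came from.

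Vdr held 18 of the 92 regions, Rxra 27, Cyp24a1 7, Cyp27b1 8, Pth1r 16, Nr4a2 5 and Nr3c1 11. Per 100 kb of the stretch searched, Rxra had 17.3 regions and Pth1r 16.8, and 97.1% and 96.7% of the 21938 protein-coding genes, given the same flanks, had a lower density. Vdr had 14.3 regions per 100 kb (91.7% of coding genes lower), Cyp27b1 10.7 (77.6%) and Cyp24a1 8.29 (63.6%). Nr3c1 with 6.15 (49.3%) and Nr4a2 with 5.74 (46.8%) were near the middle of all coding genes.

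The flanks reach into neighbouring genes. The nearest start of a protein-coding gene belonged to the gene itself for 48 of the 92 regions (52.2%). This held for 27 of 27 regions at Rxra and 5 of 5 at Nr4a2, for 7 of 18 at Vdr and 6 of 11 at Nr3c1, and for 2 of 16 at Pth1r, 1 of 7 at Cyp24a1 and 0 of 8 at Cyp27b1. The counts at Rxra and Nr4a2 therefore describe regions with no closer coding promoter, and those at Cyp27b1 describe a cluster of other genes. Of all 92 regions, 12 lay within 1 kb of a start of their own gene, 10 upstream, 24 in the gene body and 46 past its end.

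**Figure D1:**
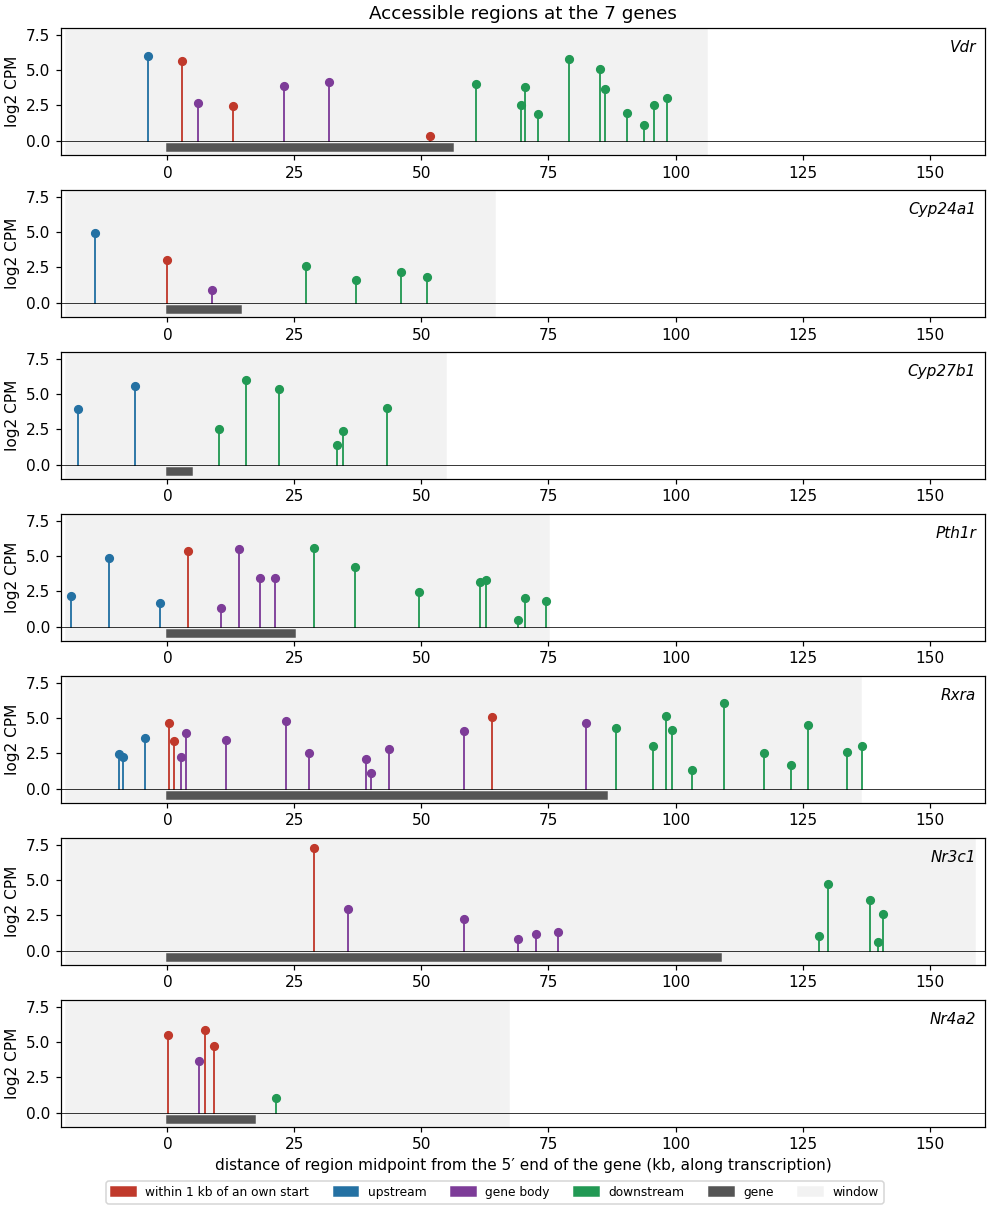
Each panel shows 1 gene, with the gene as a dark bar and the stretch searched in grey, and each stem is a region at its midpoint (horizontal axis, kb from the 5′ end along transcription) with its level (vertical axis, log2 CPM, 1 pooled value per region). Cyp27b1 has no region in or at the gene, Nr4a2 has 4 of its 5 regions in the gene, and the Nr3c1 region of 7.30 log2 CPM lies 28925 bp inside the gene record.

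At Vdr, levels ran from 0.30 to 6.00 log2 CPM with a median of 3.33. Wider regions collect more cuts, so levels are compared between regions per length, as log2 CPM minus log2 of the width in kb (log2 CPM per kb). The highest region at Vdr lay upstream, at chr15:97913946-97914912, and ended 3316 bp short of the 5′ end of the gene. Its level was 6.00 log2 CPM over 967 bp or 6.05 log2 CPM per kb, higher than 99.2% of all regions and than 97.9% of the 7408 regions within 10% of its width. It is intergenic and held 2 RUNX matches.

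The gene has 5 annotated starts, and 3 lay within 1 kb of a region. The widest region at a Vdr start, chr15:97906977-97908535, spanned exon 1 and part of intron 1, with 5.61 log2 CPM or 4.97 log2 CPM per kb over 1559 bp. It began 2095 bp inside the gene record, so that the outermost annotated 5′ end had no region within 1 kb. A region in intron 1 near an inner start had 3.32 log2 CPM per kb, and a region of 200 bp over exon 9 near the start of a short transcript had 2.62, the lowest at Vdr.

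Inside the gene, introns 1, 2 and 3 each held a further region, with 4.11, 4.25 and 4.40 log2 CPM per kb. The intron 2 region, chr15:97887384-97888164, was the one with a GRE match inside the gene. Past the gene end lay 11 regions, 10 of them inside the neighbour Hdac7, which encodes a class IIa histone deacetylase. The widest, at chr15:97830735-97832593, covered an Hdac7 start and had 5.75 log2 CPM or 4.86 log2 CPM per kb over 1859 bp. The region that held the other GRE match, chr15:97839754-97840620, also held an NBRE match and had 4.04 log2 CPM per kb. The region with the CRE match, chr15:97849217-97850476, was the only one past the gene end outside Hdac7, with 3.66 log2 CPM per kb. The remaining NBRE region, chr15:97824108-97824782, had 4.21.

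Rxra, the partner of the vitamin D receptor, had levels from 1.11 to 6.09 log2 CPM with a median of 3.34. The region over exon 1, chr2:27676142-27677275, had 4.66 log2 CPM or 4.48 log2 CPM per kb and covered 3 of the 6 annotated starts. A region of 547 bp in intron 1, 203 bp from a start, had 4.21 log2 CPM per kb and a GC content of 75.1%, the highest of the 92. An inner start in intron 2 was covered by chr2:27739754-27740817, which had 5.09 log2 CPM or 5.00 log2 CPM per kb, the highest of the 3 start regions. The remaining region counts at Rxra were 3 upstream, 10 in the gene body and 11 past the end.

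The highest region at Rxra lay past the gene, at chr2:27785529-27786607, 22572 bp after the gene end, and had 6.09 log2 CPM or 5.99 log2 CPM per kb over 1079 bp. It was higher per kb than 99.0% of all regions and higher than 96.4% of the 6961 regions of like width. A group of regions between 8977 and 12516 bp past the end had 4.57, 5.33 and 4.88 log2 CPM per kb, and the middle one, chr2:27774102-27774961, held the CRE match. The DR3 match was in intron 1, at chr2:27719689-27720412, which had 2.83 log2 CPM or 3.29 log2 CPM per kb, close to the 3.25 median of all regions. The widest, chr2:27764057-27765317, lay 1100 bp past the gene end, with 3.98 log2 CPM per kb over 1261 bp.

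Cyp24a1, the calcitriol-inactivating hydroxylase, had lower levels. Its only annotated start was covered by chr2:170496990-170497674, with 2.99 log2 CPM or 3.53 log2 CPM per kb over 685 bp, and 18.6% of coding genes with a start region had a lower level per kb there. A start of the neighbour Pfdn4, a subunit of the prefoldin chaperone, lay within 1 kb of the same region. The region inside the gene, in intron 7, was 200 bp wide and had 0.88 log2 CPM or 3.20 log2 CPM per kb. The 4 regions past the gene end ran from 2.90 to 3.28 log2 CPM per kb. The DR3 match was in the lowest of these, chr2:170459829-170460226, whose level was 1.57 log2 CPM and whose midpoint lay 37118 bp from the Cyp24a1 start. The highest and widest region near Cyp24a1, chr2:170510972-170511975, with 4.94 log2 CPM or 4.93 log2 CPM per kb, was at starts of Pfdn4 and the noncoding Gm16796.

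Cyp27b1, the calcitriol-making hydroxylase, was the only one of the 7 genes without a region within 1 kb of a start, and no region overlapped the gene. The region nearest a Cyp27b1 start ended 5540 bp upstream, at chr10:127040837-127042710, and lay within 1 kb of starts of Mettl1 and Eef1akmt3, which encode methyltransferases. It was the widest of the 8, with 5.59 log2 CPM or 4.69 log2 CPM per kb over 1874 bp. The highest was at a start of the cell-cycle kinase gene Cdk4, at chr10:127063073-127064391, with 6.03 log2 CPM or 5.63 log2 CPM per kb. Starts of Tspan31 and the noncoding A730063M14Rik (4.51 log2 CPM per kb) and of Tsfm (4.18) had regions as well. The other 4 regions lay inside neighbouring genes past the end of Cyp27b1, the closest 5204 bp from it, with 1.38 to 4.04 log2 CPM. None of the 8 held a DR3, GRE, CRE, NBRE or AP-1 match, and 6 held a RUNX match.

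Pth1r, the PTH receptor gene, had levels from 0.46 to 5.54 log2 CPM with a median of 3.22. The region at its starts, chr9:110742160-110744233, lay over exon 3 and the introns on either side of it and covered 3 of the 6 annotated starts. It had 5.35 log2 CPM or 4.30 log2 CPM per kb over 2074 bp, and 34.4% of coding genes with a start region were lower per kb. It also lay within 1 kb of a start of Myl3, which encodes a myosin light chain, and held 1 DR3 match. The outermost 5′ end of the gene had no region within 1 kb, and the nearest, 1356 bp upstream, had 1.64 log2 CPM or 3.34 log2 CPM per kb.

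The highest level per kb at Pth1r was in intron 3, at chr9:110732384-110733589, with 5.50 log2 CPM or 5.23 log2 CPM per kb over 1206 bp. The other gene body regions, in introns 3, 5 and 10, had 3.62, 4.41 and 4.12 log2 CPM per kb. The region with the highest level, chr9:110716787-110719840, began 2245 bp past the gene end and was 3054 bp wide, rank 9 in width among the 94963. It had 5.54 log2 CPM but 3.93 log2 CPM per kb, the lowest of the 28 regions within 10% of its width (itself included). It held 8 RUNX matches, the largest number among the 92 regions, and the other DR3 match. Further regions were at starts of the neighbours Ccdc12 (4.29 log2 CPM per kb) and Myl3 (3.70). An upstream region of 1907 bp inside Myl3, 10554 bp before Pth1r, had 3.95 log2 CPM per kb and 5 RUNX matches.

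Nr4a2, the cAMP-induced nuclear receptor gene, had few regions with high levels per kb. The region at the 5′ end, chr2:57123162-57124666, had 5.49 log2 CPM or 4.90 log2 CPM per kb over 1505 bp and was the widest of the 5. In intron 1, chr2:57115890-57117342 had 5.86 log2 CPM or 5.32 log2 CPM per kb over 1453 bp, and chr2:57114379-57115286, the region with the CRE match, had 4.73 log2 CPM or 4.87 log2 CPM per kb. A region of 330 bp in the same intron had 5.22 log2 CPM per kb and was higher than 99.7% of the 11508 regions of like width. These 4 regions were all among the highest 10% of the list per kb (from 4.74 log2 CPM per kb). The remaining region, 4015 bp past the gene end, had 1.00 log2 CPM or 2.74 log2 CPM per kb. The next region on that side lay 992013 bp from the gene, and on the upstream side 52007 bp.

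Nr3c1, the glucocorticoid receptor gene, had the region with the highest level of all 92, on chromosome 18 from 39488975 to 39492018. It covered 6 of the 9 annotated starts, with exon 1 of the reference transcript, and was 3044 bp wide (rank 10 in width). Its level of 7.30 log2 CPM ranked 61 among the 94963 regions, and it had 5.69 log2 CPM per kb, above 86.4% of coding genes with a start region. It lay 27403 bp inside the gene record, whose outermost 5′ end had no region within 1 kb. The 5 other regions in the gene were all in intron 2, from 200 to 471 bp wide, with 0.85 to 2.97 log2 CPM or 2.71 to 4.05 log2 CPM per kb. Of the 5 regions past the end, the highest, with 4.74 log2 CPM or 4.20 log2 CPM per kb, was at a start of the noncoding Gm15337. No DR3, GRE, CRE or NBRE match lay in the 11 regions.

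Taken over all 92, the regions were wider than the list (median 632.5 bp against 460 bp), with a median level of 3.02 against 2.12 log2 CPM, and per length of 3.92 against 3.25 log2 CPM per kb. Above the median of all regions per kb lay 72 of the 92 (78.3%), and 17 (18.5%) were in the highest 10%. By gene, the medians per kb were 4.90 at Nr4a2, 4.21 at Cyp27b1, 4.08 at Vdr, 4.02 at Rxra, 3.74 at Pth1r, 3.22 at Nr3c1 and 3.20 at Cyp24a1. The values within a gene spread over more than the distance between these medians, from 2.62 to 6.05 at Vdr and from 2.91 to 5.99 at Rxra, and with 1 value per region the order has no error. Members of the highest 10% numbered 5 of 27 at Rxra, 4 of 18 at Vdr, 4 of 5 at Nr4a2, and 1 each at Cyp24a1, Cyp27b1, Pth1r and Nr3c1. At Cyp24a1 and Cyp27b1 that region was the Pfdn4 or Cdk4 promoter. Those at Vdr included regions of 5.15 and 4.86 log2 CPM per kb inside Hdac7, the latter at an Hdac7 start.

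**Figure D2:**
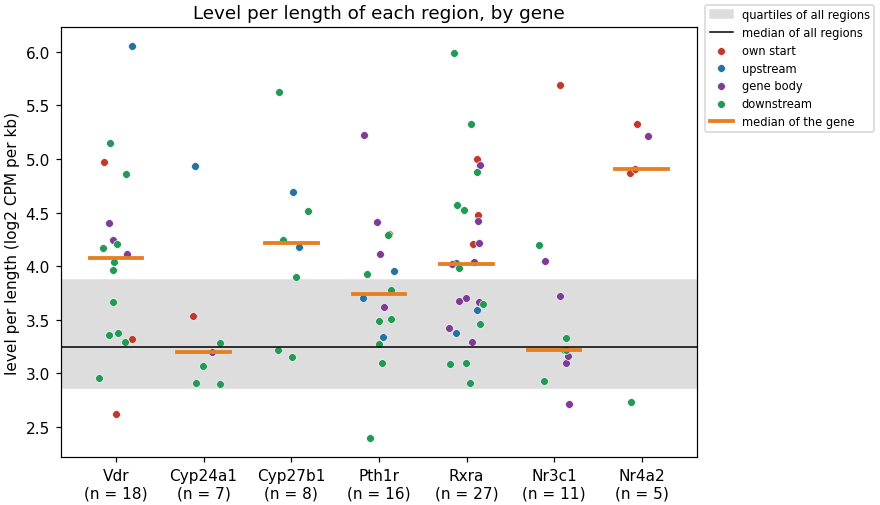
Each point is 1 of the 92 regions, grouped by gene (horizontal axis) and placed by its level per length (vertical axis, log2 CPM per kb, 1 pooled value per region, without error), with the colour giving its position and the orange line the median of the gene. The grey band spans the quartiles of all 94963 regions, 2.87 and 3.87, around their median of 3.25, and the highest points are the upstream Vdr region at 6.05 and the downstream Rxra region at 5.99.

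Position and base composition differed among the 92. The 12 regions at own starts had a median of 4.68 log2 CPM per kb, against 3.99 for the 10 upstream, 4.03 for the 24 in the gene body and 3.50 for the 46 past the end. The 22 regions within 1 kb of any transcript start were 23.9% of the 92, near the 22.7% of all regions, and had a median of 4.50 log2 CPM per kb against 4.10 for all start regions. The 70 others had 3.66 against 3.15 log2 CPM per kb. The median GC content was 55.5% against 49.8% in the list, and by gene it ran from 47.8% at Nr3c1 and 49.5% at Cyp24a1 to 64.1% at Nr4a2. Compared within 4 classes of width, the medians of the 92 were 3.18, 3.55, 3.46 and 4.45 log2 CPM per kb from narrow to wide, and those of all regions 2.92, 3.08, 3.32 and 4.24.

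A start region was present for 6 of the 7 genes, and for 64.1% of the 21938 protein-coding genes. The highest region at a start of each had 5.69 log2 CPM per kb at Nr3c1, 5.32 at Nr4a2, 5.00 at Rxra, 4.97 at Vdr, 4.30 at Pth1r and 3.53 at Cyp24a1, where the median of the 14058 coding genes with such a region was 4.75. That Nr4a2 region lay 852 bp from the nearest start and covered none. The regions covering an Nr4a2 start had 4.90 and 4.87 log2 CPM per kb. At Vdr, Pth1r and Nr3c1 the open start was an inner one. The outermost 5′ end alone had a region within 1 kb at 3 of the 7 genes, Cyp24a1, Rxra and Nr4a2, and at 12968 of the 21938 coding genes.

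The CpG content of the promoters went with the presence of a region. RefSeq promoters were matched for 5 of the 7 genes, with 8 starts in all, and not for Cyp24a1 and Nr3c1. The 5 starts with a region had 44 CpG pairs in the 250 bases before the start at Nr4a2, 40 at Rxra, 22 and 16 at the inner Pth1r starts and 11 at Vdr. The 3 without one had 3 at the 5′ end of Pth1r, 1 at Cyp27b1 and 1 at an inner Rxra start. Over all 32851 RefSeq starts, the median was 16 pairs for the 13792 with a region and 3 for the 19059 without. The Nr4a2 promoter had more pairs than 99.5% of RefSeq promoters and that of Rxra more than 98.7%.

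**Figure D3:**
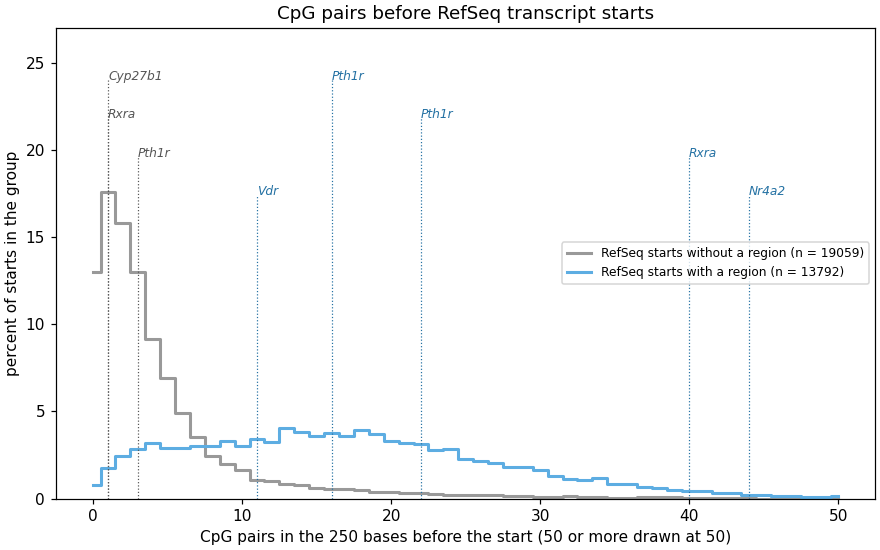
The lines give the percent of RefSeq starts (vertical axis) at each number of CpG pairs in the 250 bases before the start (horizontal axis, 50 or more drawn at 50), for the 13792 starts with a region and the 19059 without. Dotted lines mark the 8 starts of the 5 matched genes, and the 5 with a region (blue names, 11 to 44 pairs) lie to the right of the 3 without (grey names, 1 to 3 pairs).

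The motif counts of the 92 regions were read against all regions and against regions of like width. A DR3 match was in 4 regions (4.35%, 95% Wilson interval 1.70% to 10.7%) against 3.72% of all regions, and 2 of the 4 were in the widest of the 4 width classes, where 6.78% of all regions had one. A GRE match was in 2 regions (2.17%, 0.598% to 7.58%) against 1.22%. An NBRE match was in 2 (2.17%, 0.598% to 7.58%) against 2.94%. A CRE match was in 3 (3.26%, 1.12% to 9.15%) against 1.10%, all in the widest class, where 38 of the 92 regions fell and 2.97% of all regions had one. Intervals cover counting error only. The intervals for DR3, GRE and NBRE include the share of all regions, and that for the CRE begins just above it, at 1.12% against 1.10%. They treat neighbouring regions as independent and make no allowance for width, so no excess of the CRE is read from them.

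The sites of more general factors were frequent. An AP-1 match was in 23 regions (25.0%, interval 17.3% to 34.7%) against 22.1% of all, and 17 of the 23 lay past a gene end. It was found in 7 of 27 regions at Rxra, 5 of 18 at Vdr, 5 of 11 at Nr3c1, 3 of 7 at Cyp24a1, 2 of 16 at Pth1r and 1 of 5 at Nr4a2. A RUNX match was in 46 regions (50.0%, interval 40.0% to 60.0%) against 42.7% of all, and in the widest class in 25 of 38 against 58.3%. Pth1r had a RUNX match in 12 of 16 regions, Cyp27b1 in 6 of 8, Rxra in 15 of 27, Vdr in 9 of 18, Nr3c1 in 3 of 11, Cyp24a1 in 1 of 7 and Nr4a2 in 0 of 5. In all RefSeq promoters (250 bases), 1.40% held a DR3, 0.387% a GRE, 1.55% a CRE, 1.34% an NBRE, 4.46% an AP-1 and 14.0% a RUNX match. Of the 8 member promoters, the one at the inner Rxra start without a region held an NBRE match, and no other match of these motifs was found.

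Other genes of the 3 pathways were described by their start regions. Where a gene had more than 1, the level per kb is that of the region with the highest log2 CPM. Of 49 genes, 46 (93.9%) had a region within 1 kb of a start, against 64.1% of the 21938 protein-coding genes. In the vitamin D list, 11 of 13 had one, and Cyp2r1, a hepatic hydroxylase of vitamin D, and Gc, the plasma carrier of vitamin D, had none. The highest level per kb was at Pdia3, a protein disulfide isomerase (6.14 log2 CPM per kb), Rxrb (5.67) and the coactivator gene Ncoa2 (5.61). The lowest was at Cubn (2.65) and Lrp2 (2.98), endocytic receptors of the kidney tubule, and at the receptor gene Rxrg (2.75).

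In the PTH list, 21 of 22 genes had a start region, and Atf4, a transcription factor of osteoblasts, had none. The highest were Gna11, a G protein subunit (6.75 log2 CPM per kb), Hdac4, a class IIa deacetylase (6.67), and Prkaca, the catalytic subunit of protein kinase A (6.44). The lowest were Mef2c, a transcription factor gene (2.90), Pthlh, which encodes the PTH-related peptide (3.10), and the receptor gene Pth2r (3.35). In the glucocorticoid list, 14 of 14 had one. The highest were the clock gene Per1 (6.22), the kinase gene Sgk1 (5.96) and Hsp90aa1, a chaperone of the receptor (5.73). The lowest were Hsd11b2 (3.46) and Hsd11b1 (4.33), which interconvert active and inactive glucocorticoids, and the zinc finger gene Zbtb16 (3.54). The medians of the genes with a region were 4.62 for vitamin D, 5.30 for PTH and 5.41 log2 CPM per kb for glucocorticoid, beside 4.75 for all coding genes.

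**Figure D4:**
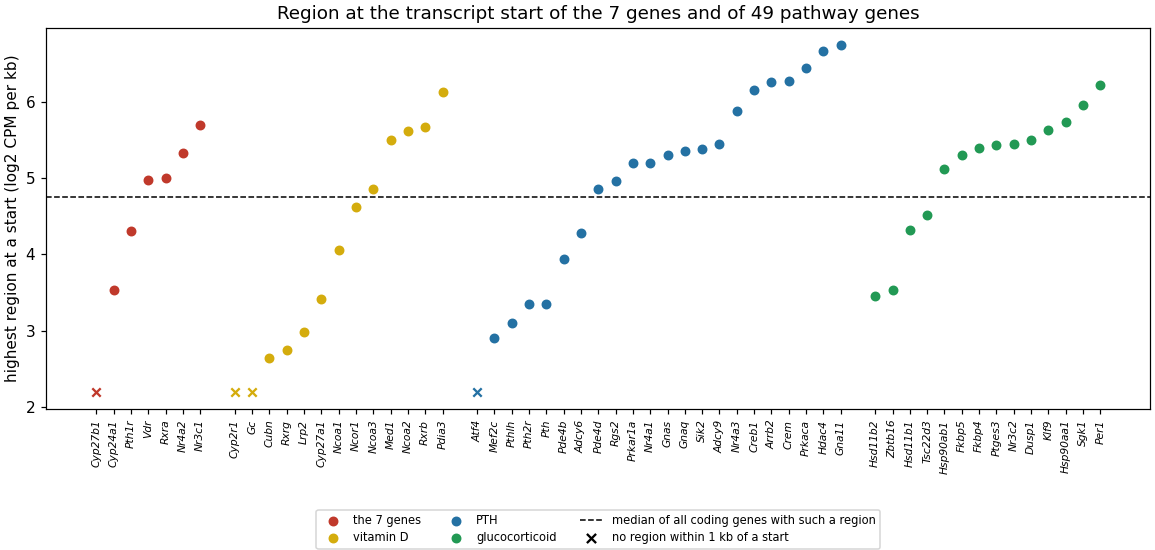
Each point is a gene (horizontal axis, ordered within its list), for the 7 genes and the 49 pathway genes. It is placed at the level per length (vertical axis, log2 CPM per kb, 1 pooled value) of the gene's start region with the highest log2 CPM. Crosses mark genes without such a region (Cyp27b1, Cyp2r1, Gc and Atf4), and the dashed line is the median of 4.75 over coding genes with one.

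The edges of the stretches searched decided some members. Just inside, the region at chr2:27812729-27813687 straddled the downstream edge at Rxra, 49772 bp past the gene end, with 3.03 log2 CPM, and a region at Pth1r 49238 bp past the end had 1.85. Just outside, the closest were a region of 3.41 log2 CPM 50199 bp past the end of Nr3c1 and one of 1.51 log2 CPM 20502 bp upstream of Vdr. The regions next beyond the edges of Pth1r had 5.87 log2 CPM, 34028 bp upstream, and 5.30 log2 CPM, 64974 bp past the end, beside 5.54 log2 CPM for the highest region counted there.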

How the data were processed

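ATAC-seq libraries of 11 MPC2 cultures in 4 groups were used as 1 deposited list of 94963 regions, each with its position and 1 value. Per the labels and the study's methods, the authors trimmed reads with Trim Galore, aligned them to mm10 with Bowtie2, removed duplicates with Picard 2.17.8, called peaks with MACS2 2.2.7.1 (Bonferroni-adjusted p cutoff of 0.01), merged them over samples, removed blacklisted regions, counted cuts with pyDNase, kept regions with at least 10 cuts in more than 1 sample, and applied TMM in edgeR 3.24.3. The study's methods also state that 1 sample was left out for its quality. The labels hold 2 osteocyte vehicle cultures, without a replicate 1. Whether read ends were shifted for the Tn5 offset is not given in the sources used here. Merged regions widen with the number of overlapping peaks, which also raises their counts.

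The deposited values were taken to be log2 CPM, normalised and averaged over the samples by the authors, since 460 regions were below 0 and the values, once unlogged, summed to 1012760; no header or label names the unit. The planned comparisons of FG-4592 with vehicle and of osteocytes with MSCs were not run, since the list has no value per sample, and the depth per sample was unknown. Each result is a description without a test.

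Genes, transcripts and starts came from GENCODE vM21 on the same assembly, coordinates are 1-based, and exons and introns are numbered in the principal (APPRIS) transcript of each gene. Level per kb is log2 CPM minus log2 of the width in kb. Promoter sequences came from RefSeq (GRCm38.p6). The named regions were those within 1 kb of an own start, the highest, the widest and the highest per kb of each gene, and those with a DR3, GRE, CRE or NBRE match; pathway genes were named when without a start region or among the 3 highest or lowest per kb of their list, and further regions were named after their values were seen. The 7 genes, the motifs and the pathway lists were chosen with earlier results of these data known. A marker gene is not reported here. Motif searches were tested on simulated sequences. Alternatives changed the windows, minimum width, joining of neighbouring regions, start definitions and motif forms. Python 3.11.15, numpy 2.4.6, pandas 2.3.3, scipy 1.17.1, statsmodels 0.14.6, pyfaidx 0.9.0.4 and matplotlib 3.10.9 were used.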

Additional observations from a re-analysis of the deposited data

How the results depend on the processing

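The windows set the number of regions. From 20 kb upstream to the gene end the 7 genes held 46 regions instead of 92, and 58 once narrower ones than 500 bp were dropped. The share nearest an own start, 52.2%, was 67.2% with 10 kb upstream and 25 kb past the end. Once regions narrower than 500 bp were dropped, the share within 1 kb of a start was 34.5% (34.7% of all such regions) and the median 4.20 log2 CPM per kb (3.75 for all such regions). Counting only the 5′ end of the gene record left 3 of 7 genes with a start region (12968 of all 21938 coding genes). Motif counts were recomputed with other letters only. DR3 matches were in 0 regions without a mismatch (0.148% of all regions) and in 46 with at most 2 (34.2% of all), the GRE in 1 with its longer form (1.09% against 0.535% of all), the CRE in 27 with TGACG alone (29.3% against 22.9%), the NBRE in 7 as AAGGTCA (7.61% against 10.3%), and RUNX in 20 as TGTGGTT (21.7% against 18.1%). In the other 14 alternatives, the regions at the 7 genes numbered from 64 (10 kb upstream to 25 kb past the end) to 112 (50 kb on either side), the share nearest an own start was 51.7% or 52.2%, the share within 1 kb of a start 20.7% or 22.8%, the median 4.03 or 4.08 log2 CPM per kb, the pathway genes with a start region 42 or 45, the genes with one 6, and the regions with an AP-1 match, as TGANTCA, 29 (31.5% against 28.1% of all). Of 42 counts of regions per gene 13 moved by more than 1.5 times and 29 did not.

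No paired analysis was possible because there was only 1 pooled value per region and no column for a replicate. For the same reason no replicate could be left out, no group could be compared, and an accessible region may come from any of the 11 cultures. The unit was inferred from the values. The depth behind each value is unknown, and a gene without a region in the list analysed here is not shown to be closed.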
